A study of Mus musculus with 5 samples.

Results

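The lysosome was examined through 29 genes for its enzymes and membrane proteins in SLAMseq libraries of mouse cardiac fibroblasts (CF). The genes were matched by name to a list of lysosomal hydrolases, activator proteins, transporters and membrane glycoproteins, and all 29 were present among the 20365 gene names of the tables. Each gene was represented by its 3′ UTR interval with the highest mean CPM, a read count scaled by library, in the labeled libraries. These intervals lay within annotated UTR of any transcript of their own gene over 99.4% to 100% of their length (GRCm39). Coding sequence of other transcripts of the same gene also covered 100% of the Grn interval, 60.7% of that of Gaa and 15.2% of that of Gusb. In the remaining genes it covered at most 3.97% (Neu1). CF came from hearts of adult healthy male C57Bl/6J wildtype mice, obtained by collagenase perfusion and expanded in culture to confluency. For each gene the T>C conversion rate, the transcript level and the reads of labeled against unlabeled cells were read. The labeled group held 3 libraries from cells kept for 12 h with 0.1 mM of the uridine analog 4-thiouridine (S4U), and the unlabeled group held 2 libraries from parallel cells kept for the same time without S4U. RNA of both groups was alkylated with iodoacetamide, so that an incorporated S4U is read as C in place of T.

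Lysosomes are acidic organelles in which hydrolases break down proteins, glycans, glycosaminoglycans and lipids that arrive by endocytosis and autophagy. Most soluble hydrolases are tagged with mannose 6-phosphate in the Golgi and carried to the lysosome by mannose 6-phosphate receptors, and a share of them is secreted. Heavily glycosylated membrane proteins line the organelle, a proton pump acidifies it, and transcription factors of the TFEB family are known to act on many lysosomal genes through a CACGTG-containing promoter element. In fibroblasts the lysosome also takes part in the turnover of matrix that the cells have internalised. A loss of many of these enzymes causes a lysosomal storage disease. In SLAMseq, the T>C conversion rate of a transcript depends on how much of its pool was made while S4U was present.

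The libraries differed in depth. Taking 1 interval for each gene, the labeled libraries held 1576048 (replicate 1), 1194971 (replicate 2) and 506045 reads (replicate 3), the unlabeled ones 1842706 and 995960, and the lysosomal genes took 0.722% to 0.959% of them. All 7 fibroblast markers were read in every library, with a summed level of 22948 to 32873 CPM of the counted reads. The 10 macrophage markers, which matter here because macrophages are rich in lysosomes, summed to 83.8, 140 and 98.8 in the labeled and to 97.7 and 154 in the unlabeled libraries. Of these, 9 were read in every library, the exception being Ptprc (CD45) with 0 to 5 reads. The CF isolation in the study's methods, described there for operated hearts, included a magnetic depletion of CD31+ endothelial and CD45+ immune cells. The part of such cells in the values below was not tested. The study describes several fibroblast preparations for SLAMseq, but no source ties a preparation to a library, and the unlabeled cells were kept in parallel, so libraries of the 2 groups may share a preparation and the p-values measure the spread between these libraries.

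Labeling was visible in nearly all lysosomal transcripts. Of the 28 genes with a covered T in every library, 26 had a higher T>C rate in the labeled libraries by the beta-binomial test at an unadjusted p below 0.05, where 95.1% of all genes tested did, so the count of 26 is near the background. The exceptions were Arsb (arylsulfatase B), with p = 0.123, and Galns (N-acetylgalactosamine-6-sulfatase), with p = 0.118, both from the beta-binomial test fitted over all intervals. Gusb (beta-glucuronidase) passed narrowly, with p = 0.0453 by the same beta-binomial fit. Its call was lost without labeled replicate 1 (p = 0.129), labeled replicate 2 (p = 0.105) or unlabeled replicate 2 (p = 0.114) in the beta-binomial test, the difference in rate of 0.0131 being 0.00642 in the last. Cln3, a membrane protein lost in juvenile Batten disease, could not be tested, since it had 2, 1 and 1 reads in the labeled and 0 in both unlabeled libraries. In 26 genes each of the 3 labeled rates lay above both unlabeled rates, which held for 90.4% of all genes, and the smallest p that an exact one-sided permutation of 3 libraries against 2 can give is 0.1. No conversion was seen in either unlabeled library for 5 genes with covered T there. A count of 0 then allows a pooled unlabeled rate of up to 0.000411 for Ids, 0.000547 for Gaa, 0.000811 for Npc1, 0.00286 for Idua and 0.00365 for Man2b1, taking 3 conversions as the limit and counting error only.

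Lysosomal transcripts carried fewer conversions than the typical transcript of the same library. Among the 27 genes with at least 200 covered T in each labeled library, the median T>C rate was 0.0155 (quartiles 0.0106 and 0.0285), against 0.0386 (quartiles 0.0341 and 0.0424) over all 6723 genes with that coverage. The shift was present in each labeled library, with medians of 0.0151, 0.0187 and 0.0169 for the lysosomal genes and of 0.0376, 0.0388 and 0.0386 for all genes. The log2 odds of conversion, taken relative to the median gene of the library, lay below 0 in 27 of 27 genes, although for Npc1, Neu1, Ids and Idua that sign changed under other settings. By limma with Benjamini-Hochberg adjustment over all genes, 17 of 27 were below the library median at an adjusted p below 0.05, where 5.61% of all genes were, and 0 were above it, where 0.253% of all genes were. Genes past this adjusted p are named as called below or above. The number of calls depended on the labeled libraries kept. It was 7 without labeled replicate 1, 14 without labeled replicate 2 and 9 without labeled replicate 3, against 2.07%, 3.38% and 2.07% of all genes in the same fits, and 6 genes (Grn, Gaa, Naglu, Npc2, Ppt1 and Lamp1) were called in each of the 3. Their intervals in GRCm39 were chr11:102327299-102327635 (Grn, plus strand), chr11:119175891-119176284 (Gaa, plus), chr11:100968272-100968498 (Naglu, plus), chr12:84801333-84803899 (Npc2, minus), chr4:122751426-122752968 (Ppt1, plus) and chr8:13224559-13225338 (Lamp1, plus). The median log2 odds difference of the 27 genes was −1.36 with all libraries, and −1.37, −1.42 and −1.30 without replicates 1, 2 and 3.

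**Figure D1:**
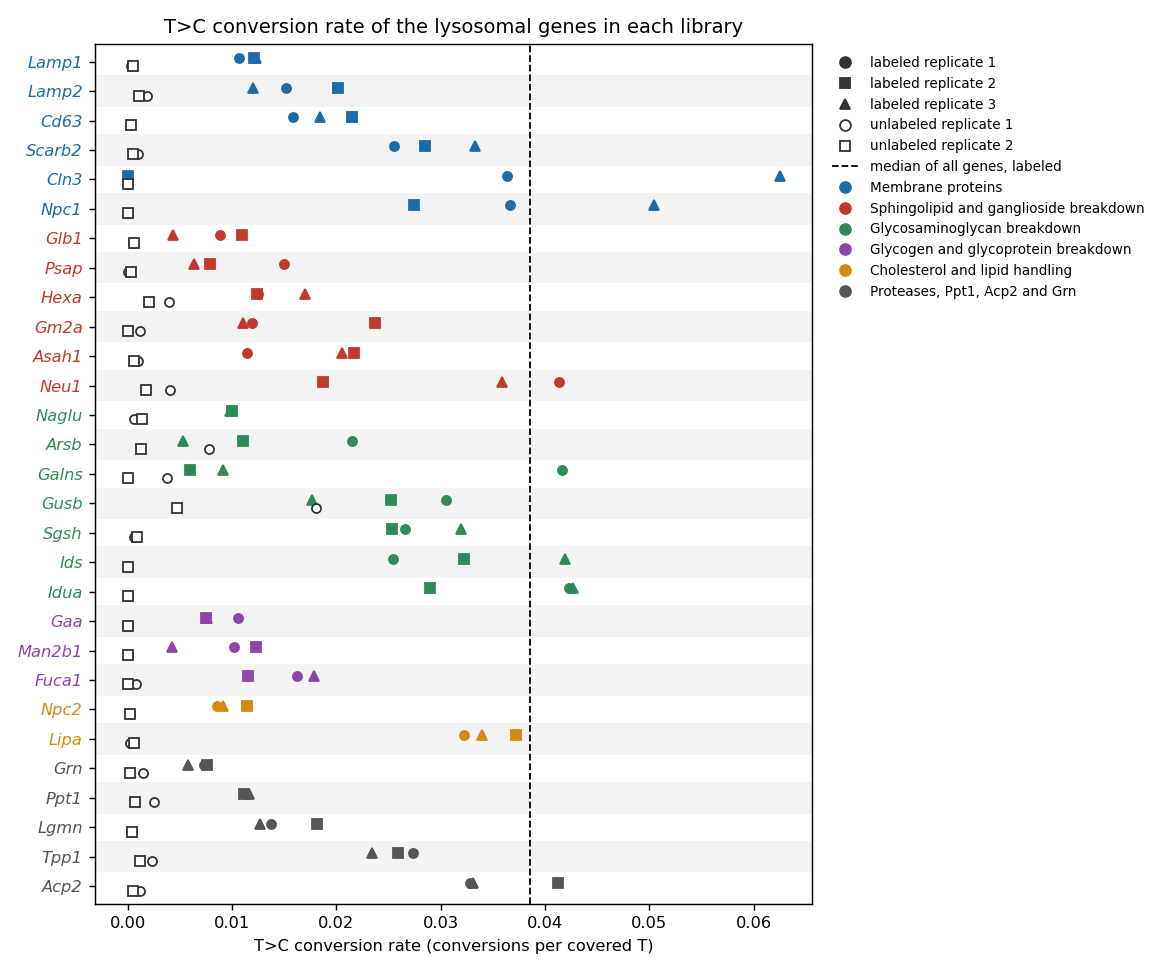
T>C conversion rate (horizontal axis, conversions per covered T) of the 29 lysosomal genes, grouped by role and ordered by mean labeled rate, with 1 point per library (filled, 3 labeled; open, 2 unlabeled). The dashed line marks the median labeled rate over all genes, 0.0386, and most labeled points lie left of it while most unlabeled points lie near 0, Gusb and Arsb excepted. The open points of Cln3 at 0 stand for libraries without a read of it, and its filled points come from 2, 1 and 1 reads.

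The membrane proteins ranged from strongly below the typical rate to not told apart from it. Lamp1, a glycoprotein that makes up much of the lysosomal membrane, had T>C rates of 0.0107, 0.0121 and 0.0123 in labeled replicates 1 to 3 and of 0.000253 and 0.000512 in the unlabeled libraries. The labeled values lay close together and far above the unlabeled ones, and the log2 odds differed from the library median by −1.77 (SE 0.09, limma adjusted p = 0.00299). Lamp2, its relative that also serves chaperone-mediated autophagy, had rates of 0.0151, 0.0201 and 0.0120 against 0.00180 and 0.00101, with a difference of −1.36 (SE 0.17, adjusted p = 0.0154). Cd63, a tetraspanin of late endosomes, lysosomes and exosomes, had rates of 0.0158, 0.0215 and 0.0185 against 0.000242 and 0.000329, with a difference of −1.10 (SE 0.12, adjusted p = 0.00961). These 3 of 5 tested genes were called below with the full set of libraries, where 5.61% of all genes were. The calls were 1, 3 and 1 without labeled replicates 1, 2 and 3 (2.07%, 3.38% and 2.07% of all genes). In these fits Lamp1 was called in 3 of 3 and Lamp2 and Cd63 in 1 each. Scarb2 (LIMP-2), the receptor that carries glucocerebrosidase to the lysosome, had the higher rates of 0.0255, 0.0285 and 0.0333 and did not pass (difference −0.43, SE 0.11, adjusted p = 0.115), although it did among genes with at least 1000 covered T (adjusted p = 0.0131) and by the share of reads with a conversion (adjusted p = 0.0316). Npc1, the transporter that takes cholesterol out of the lysosome, had rates of 0.0366, 0.0275 and 0.0505, at percentile 47.0 of all genes, with a difference of −0.05 (SE 0.19, adjusted p = 0.913). Lamp1 and Npc1 thus bound the range of this group, with mean rates of 0.0117 ± 0.000887 and 0.0382 ± 0.0116 (SD, n = 3 libraries).

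Of the 6 genes of sphingolipid and ganglioside breakdown, 5 were called below with all libraries (5.61% of all genes), and 1, 3 and 2 without labeled replicates 1, 2 and 3 (2.07%, 3.38% and 2.07% of all genes). Glb1 (beta-galactosidase), which removes galactose from gangliosides and keratan sulfate, had rates of 0.00883, 0.0110 and 0.00435 against 0.000488 and 0.000624 (difference −2.32, SE 0.24, adjusted p = 0.00927). The Glb1 rate of labeled replicate 3 came from 3 conversions in 34 reads. Psap (prosaposin), the precursor of the saposin activators, had 0.0150, 0.00787 and 0.00631 against 0 and 0.000318 (difference −2.09, SE 0.27, adjusted p = 0.0171). Its labeled replicate 1 was the highest of the 3 and came from 57 reads, against 137 and 67 in the others. Hexa, the alpha subunit of beta-hexosaminidase, which is lost in Tay-Sachs disease, had 0.0124, 0.0123 and 0.0169 against 0.00393 and 0.00199 (difference −1.51, SE 0.13, adjusted p = 0.00552). Its cofactor Gm2a, the GM2 activator, had a mean labeled rate of 0.0155 ± 0.00707 (adjusted p = 0.0392), and Asah1 (acid ceramidase) one of 0.0179 ± 0.00560 (adjusted p = 0.0421; SD, n = 3 libraries for both, limma), whose call was lost whichever labeled library was left out. The exception was Neu1, the sialidase that forms a complex with beta-galactosidase, with 0.0413, 0.0187 and 0.0358 from only 32, 14 and 16 reads (adjusted p = 0.540), a spread that reaches from well below to above the typical rate.

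The 3 genes of glycogen and glycoprotein breakdown were all called below with all libraries, and 1, 3 and 2 of them without labeled replicates 1, 2 and 3, against the same shares of all genes. Gaa, the acid alpha-glucosidase that degrades glycogen and is lost in Pompe disease, had rates of 0.0105, 0.00749 and 0.00755 and no conversion in either unlabeled library (difference −2.19, SE 0.14, adjusted p = 0.00337). Man2b1 (alpha-mannosidase) had 0.0101, 0.0122 and 0.00422 (difference −2.03, SE 0.23, adjusted p = 0.0121). These rates came from only 5, 6 and 1 conversions in 46, 57 and 28 reads. Fuca1 (alpha-fucosidase) had 0.0162, 0.0115 and 0.0178 (difference −1.36, SE 0.16, adjusted p = 0.0126). Between 8.16% and 12.1% of the Gaa reads carried a conversion in the labeled libraries, and 0% in the unlabeled ones.

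The enzymes of glycosaminoglycan breakdown, which remove heparan, dermatan and keratan sulfate step by step and are lost in the mucopolysaccharidoses, were mostly nearer to the typical rate. Of the 6 tested, 1 was called with all libraries (5.61% of all genes). This was Naglu (alpha-N-acetylglucosaminidase), with the labeled rates 0.00988, 0.00994 and 0.00979, the smallest relative spread of any lysosomal gene. That spread rests on few counts, with 12, 10 and 6 conversions in 88, 58 and 31 reads. The share of Naglu reads with a conversion was less even, at 10.2%, 10.3% and 19.4% in labeled replicates 1 to 3. Its unlabeled rates were 0.000561 and 0.00139 (difference −1.94, SE 0.09, adjusted p = 0.00242). By the share of reads with a conversion, 3 of the 6 were called (Naglu, Gusb and Arsb), against 14.7% of all genes. Sgsh (N-sulfoglucosamine sulfohydrolase) had 0.0266, 0.0253 and 0.0319 (adjusted p = 0.0987). Ids (iduronate 2-sulfatase) had 0.0254, 0.0323 and 0.0419, and Idua (alpha-L-iduronidase) had 0.0423, 0.0290 and 0.0427, and neither was called (limma adjusted p = 0.420 and 0.995). In Arsb the unlabeled rates of 0.00773 and 0.00122 overlapped the labeled rates of 0.0215, 0.0111 and 0.00526, so that the groups could not be separated, and its difference of −1.80 had a wide error (SE 0.38, adjusted p = 0.0747). Galns, with 5, 17 and 6 labeled reads, had too few covered T for this comparison.

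Gusb stood apart through its background. Its labeled rates of 0.0305, 0.0252 and 0.0177 faced unlabeled rates of 0.0181 and 0.00471, so unlabeled replicate 1 lay above labeled replicate 3. The interval used, chr5:130017852-130018358 on the minus strand of GRCm39, lies wholly within exons of Vkorc1l1 on the opposite strand, and whether the authors' counting used strand is not given in the sources used here, so reads of the 2 genes cannot be told apart. A separate Gusb interval, chr5:130028441-130028871, had rates of 0.0300, 0.0306 and 0.0229 and no conversion in either unlabeled library, from 24, 30 and 8 labeled and 23 and 18 unlabeled reads. Opposite-strand exons also covered 100% of the Grn interval (Fam171a2), 88.2% of that of Lamp1 (Grtp1) and 71.2% of that of Npc1 (Rmc1), and part of the interval in 10 of the 29 genes.

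The 2 soluble proteins of cholesterol handling lay apart in rate. Npc2, the small protein that hands cholesterol to Npc1, had 0.00854, 0.0115 and 0.00911 against 0.000203 and 0.000162 (difference −2.05, SE 0.12, adjusted p = 0.00322), which put it at percentile 1.12 of all genes. Lipa, the acid lipase that frees cholesterol from its esters, had 0.0323, 0.0373 and 0.0339 against 0.000199 and 0.000551, and was not called (difference −0.17, SE 0.095, adjusted p = 0.377). The 3 labeled rates of Lipa all lay above the 3 of Npc2. As a share of reads, 48.8%, 51.8% and 48.0% of the Lipa reads carried a conversion in the labeled libraries, and 12.1%, 17.3% and 14.1% of the Npc2 reads.

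Among the proteases and remaining soluble proteins, Grn had the lowest rate of all 29 genes. Grn encodes progranulin, a secreted glycoprotein that is cut into granulins in the lysosome. Its rates were 0.00734, 0.00755 and 0.00573 against 0.00140 and 0.000175, and only 9.43%, 10.8% and 9.43% of its labeled reads carried a conversion. It lay at percentile 0.431 of all genes, with a difference of −2.54 (SE 0.12, adjusted p = 0.00257). Ppt1, the thioesterase that removes palmitate from proteins, had 0.0113, 0.0112 and 0.0116 (difference −1.78, SE 0.09, adjusted p = 0.00264). Lgmn, the asparaginyl endopeptidase legumain, had 0.0137, 0.0181 and 0.0126 (adjusted p = 0.00678). Its call was lost without labeled replicate 1 (limma adjusted p = 0.0682) or labeled replicate 3 (limma adjusted p = 0.0546). Tpp1, a tripeptidyl peptidase, came nearer to the typical gene with 0.0273, 0.0259 and 0.0234 (difference −0.62, SE 0.10, adjusted p = 0.0392), and its call was lost whichever labeled library was left out. Acp2, an acid phosphatase, had 0.0328, 0.0413 and 0.0331 and was not called (difference −0.11, SE 0.11, adjusted p = 0.607). Of these 5 genes, 4 were called below with all libraries (5.61% of all genes). The number was 2, 3 and 2 without labeled replicates 1, 2 and 3 (2.07%, 3.38% and 2.07% of all genes). In the order of mean rates over all 29 genes, 27 of 28 neighbouring pairs lay within the larger of their SDs, the exception being the step from Naglu to Ppt1, so most neighbours in the order did not differ beyond their spread. The small SD of Naglu in that step came from 12, 10 and 6 conversions in the labeled libraries.

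Promoters of the lysosomal genes were read for the CACGTG element, since a known regulator of lysosomal genes uses it. RefSeq promoters of build GRCm38.p6 (250 bases before to 50 after the start) were found for 26 of the 29 genes; Asah1, Galns and Npc1 were not matched. CACGTG, which reads the same on both strands, was in a promoter of 7 of the 26 genes (26.9%), and in one of 8.09% of all 27025 gene symbols. The longer form TCACGTGA, which contains it, was found in Cln3 alone (3.85% of the 26 genes) and in 1.12% of all symbols. The symbols outnumber the 20365 gene names of the data and so include genes without reads, while all 26 lysosomal genes were read. Among genes with a tested rate, 667 held CACGTG and 4734 did not, against 6 and 19 of the lysosomal genes. One site of each of the 7 genes is shown 5′ to 3′ on the strand of the gene with the element in capitals, because these are the lysosomal genes with the element. The Lamp1 promoter held 4 such elements, of which the first is shown, and that of Cln3 held 2, of which the one in the longer form is shown.
Lamp1, chr8:13159088-13159117, plus strand, GRCm38.p6: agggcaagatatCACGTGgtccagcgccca
Glb1, chr9:114401018-114401047, plus strand, GRCm38.p6: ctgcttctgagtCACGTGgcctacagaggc
Gaa, chr11:119267811-119267840, plus strand, GRCm38.p6: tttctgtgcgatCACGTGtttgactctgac
Naglu, chr11:101070009-101070038, plus strand, GRCm38.p6: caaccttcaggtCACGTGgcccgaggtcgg
Sgsh, chr11:119355522-119355551, minus strand, GRCm38.p6: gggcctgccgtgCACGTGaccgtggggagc
Lgmn, chr12:102439124-102439153, minus strand, GRCm38.p6: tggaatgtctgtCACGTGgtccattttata
Cln3, chr7:126583340-126583369, minus strand, GRCm38.p6: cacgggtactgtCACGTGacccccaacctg

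These elements began 61 (Lamp1), 48 (Glb1), 140 (Gaa), 73 (Naglu), 29 (Sgsh), 49 (Lgmn) and 121 (Cln3) bases before the start. Of the 6 of these genes with a tested rate, 5 were called below the library median and Sgsh was not (adjusted p = 0.0987), with mean rates of 0.00804 to 0.0279 and a median of 0.0108. Of the 19 tested genes whose promoter lacked the element, 11 were called below it, with a median rate of 0.0158. Over all genes, 4.50% of 667 with the element and 5.53% of 4734 without it were called below the library median. The match is to letters in a fixed window and shows no binding.

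The lysosomal genes covered a wide range of levels. QuantSeq gives a read per transcript end, so levels are not scaled by length. The deposited CPM were divided by a read number 7.58 to 28.9 times the counted reads, and among the labeled libraries 28 of 29 genes had their lowest CPM in replicate 3, so levels are also given as CPM of the counted reads. On the deposited scale the median lysosomal gene had 7.78 CPM, and 12.7 CPM with intervals summed per gene. The median of all 20365 genes was 0.451 CPM, but only 11420 of them were read in every labeled library. All 29 lysosomal genes were. Cd63 was the highest, with 1743, 1763 and 2308 CPM of counted reads in the labeled and 1845 and 1722 in the unlabeled libraries. Labeled replicate 3 was the highest of the 5. Npc2 (mean 1001 ± 412), Lamp2 (948 ± 230), Lamp1 (901 ± 52.2), Scarb2 (705 ± 84.0) and Grn (678 ± 213; CPM of counted reads, SD, n = 3 labeled libraries) followed. Among these 5, neighbours lay within the larger of their SDs except Lamp1 and Scarb2, and the gap from Cd63 to Npc2 was larger than both SDs. Lamp1 had 886, 857 and 958 against 899 and 822, a narrow range over all 5 libraries. These 6 genes gave 68.8% to 78.4% of the reads of all 29 in a library. At the other end, 9 genes had under 50 CPM of counted reads, among them Idua (21.9 ± 10.1), Neu1 (21.2 ± 9.98), Galns (9.75 ± 5.82) and Cln3 (1.36 ± 0.575).

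**Figure D2:**
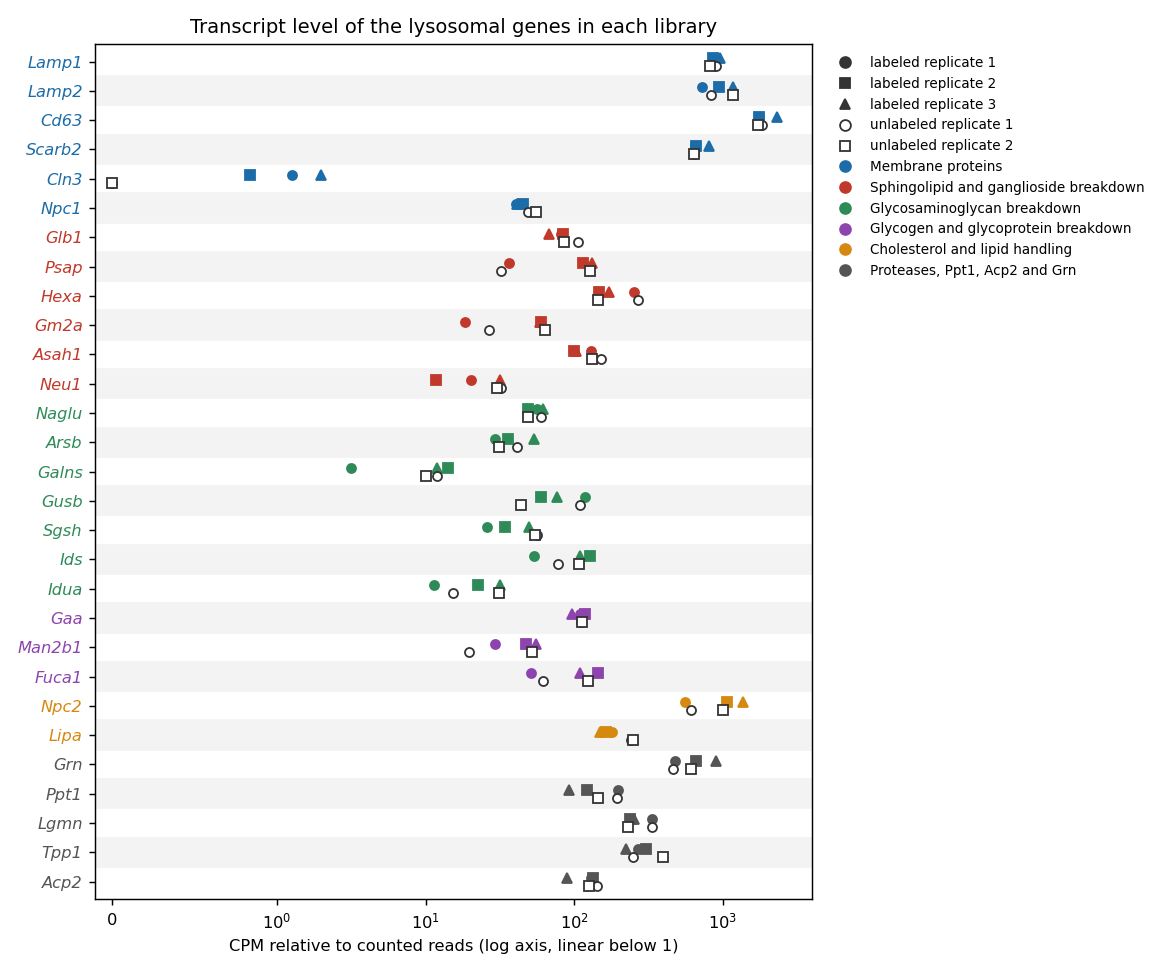
Transcript level (horizontal axis, CPM relative to the counted reads, log scale that is linear below 1) of the 29 lysosomal genes, with 1 point per library (filled, 3 labeled; open, 2 unlabeled). Cd63 lies highest, at 1722 to 2308, labeled and unlabeled points of most genes overlap, and Lipa is seen with 3 labeled points of 148 to 180 left of 2 unlabeled points of 243 and 247.

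Some levels differed more between libraries of a group than between the groups. Npc2 had 559, 1071 and 1373 CPM of counted reads in labeled replicates 1, 2 and 3 and 610 and 1010 in the unlabeled ones. Psap had 36.2, 115 and 132 against 32.0 and 129, and Gm2a had 18.4, 60.3 and 59.3 against 26.6 and 63.3. In all 3 genes labeled replicate 1 and unlabeled replicate 1 were the lowest. These 2 libraries also had the lowest summed level of the 10 macrophage markers, given above. Labeled replicate 3 was close to unlabeled replicate 1 in that sum (98.8 and 97.7) but had the highest Npc2 and Psap. Single markers differed: Lyz2 had 2.54, 27.6 and 17.8 CPM of counted reads in the labeled and 3.26 and 30.1 in the unlabeled libraries. Cd68 had 16.5, 17.6 and 11.9 against 20.1 and 11.04. The summed endothelial markers, 95.8, 165 and 92.9 against 133 and 187, were lowest in labeled replicates 1 and 3. The part of such cells in these levels was not tested. The reverse was seen for Hexa, with 252, 147 and 172 against 268 and 144, and for Ppt1, with 198, 121 and 92.9 against 195 and 145, where the same 2 libraries were the highest.

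Lamp2 had 3 separate 3′ ends with reads, a gene known for alternative last exons. The first along the gene, chrX:37508379-37510588 (minus strand, GRCm39), is the interval used above and took 68.3%, 80.9% and 88.3% of the Lamp2 reads in the labeled and 69.1% and 84.1% in the unlabeled libraries. The 95% Wilson intervals of these shares, which cover counting error only, were 66.0% to 70.5%, 78.8% to 82.9%, 85.7% to 90.5%, 67.1% to 71.0% and 82.1% to 86.0%. The second, chrX:37493926-37494308, took 31.2%, 18.7% and 11.1% against 30.3% and 15.4%, and the last, chrX:37488524-37491015, under 0.7% in each library. The share of the second end was thus highest in both libraries numbered 1, whether labeled or not. The T>C rate of the first end was 0.0151, 0.0201 and 0.0120 and that of the second 0.00754, 0.0107 and 0.0104, so the first was higher in 3 of 3 labeled libraries. It was also higher in both unlabeled libraries, with 0.00180 and 0.00101 against 0.000164 and 0.000227. The labeled gap was smallest in replicate 3, where the second end had 75 reads.

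**Figure D3:**
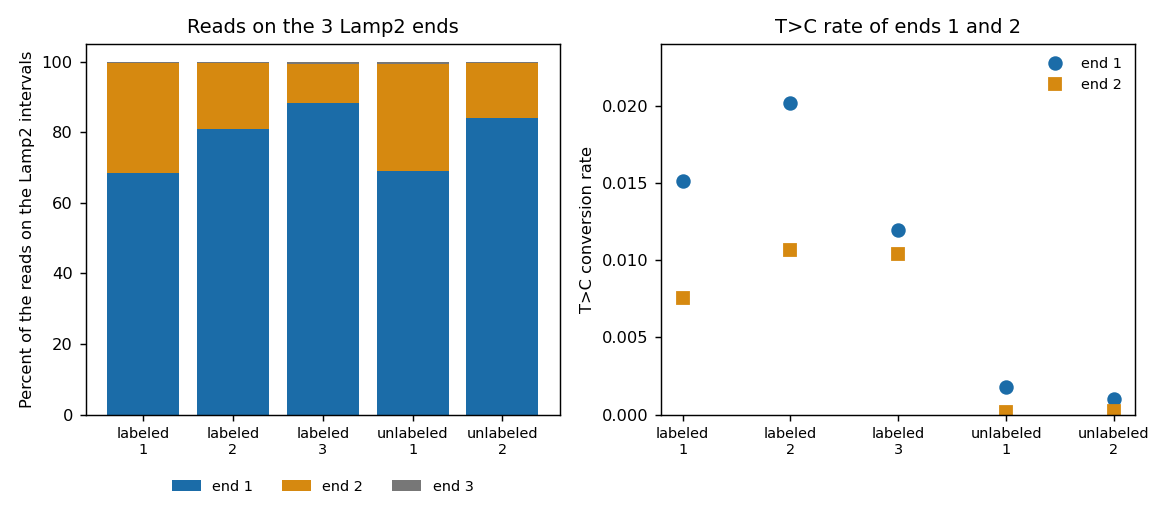
Left, percent of the Lamp2 reads on each of its 3 ends (stacked bars) in the 3 labeled and 2 unlabeled libraries. Right, T>C conversion rate of ends 1 and 2 in the same libraries: end 1 took 68.3% to 88.3% of the reads and had the higher rate in each labeled library.

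Reads of the lysosomal genes were compared between cells with and without S4U. By edgeR's quasi-likelihood test without a replicate block, 0 of 28 genes passed at an adjusted p below 0.05, where 0.0% of all 9806 genes did, and 0 of 28 passed at an unadjusted p below 0.05, where 5.98% of all genes did. DESeq2 called 0 of the 19 lysosomal genes to which it gave an adjusted p, where it called 0.504% of the 3175 genes with one, and Sgsh and Neu1 were not among the 19. The log2 fold changes (labeled over unlabeled) had a median of 0.03, against 0.02 over all genes, with 15 above and 13 below 0. With all libraries, the highest was that of Grn, 0.41 (SE 0.36), whose 478, 656 and 901 CPM of counted reads overlapped the unlabeled 463 and 614. The log2 fold change of Grn was 0.14 without labeled replicate 3 and 0.68 without unlabeled replicate 2, where that of Npc2 was 0.85. The lowest was that of Sgsh, −0.55 (SE 0.36, edgeR adjusted p = 0.982), with 26.0, 34.3 and 49.4 against 56.4 and 54.2. Lipa had 180, 165 and 148 CPM of counted reads against 243 and 247, a log2 fold change of −0.50 (SE 0.23, edgeR unadjusted p = 0.0627, adjusted p = 0.868). With the replicate number as a block, which called 11.7% of all genes, edgeR's adjusted p was 0.00626 for Sgsh, 0.0400 for Lipa and 0.0493 for Neu1, each lower in labeled libraries. In Sgsh and Lipa all labeled values lay below both unlabeled values, as they did for Glb1, Asah1 and Npc1, that is in 5 of 28 genes, where 13.1% of all genes had such an order. The opposite order was seen for Scarb2, where 8.21% of all genes had it, and for the barely read Cln3. The abundant membrane protein Lamp1 had a log2 fold change of 0.15 (SE 0.23) and Npc2 one of 0.38 (SE 0.45). That of Npc2 was 0.02 without unlabeled replicate 1 and 0.85 without unlabeled replicate 2.

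Other lists of lysosomal function were read from the same fit. Of 16 further lysosomal enzymes with enough covered T, 10 were called below the library median, where 5.61% of all genes were, with a median rate of 0.0185, and the lowest of those with at least 1000 covered T in every labeled library was Scpep1 (0.0112 ± 0.00408), a serine carboxypeptidase. Of 10 cathepsins, the main lysosomal proteases, 8 were called below it, with a median of 0.0130 and a range of 0.00499 to 0.0309, and the 4 well-covered ones, with that minimum of covered T, ran from Ctsd (0.0117 ± 0.00121) to Ctsl (0.0141 ± 0.00125). The V-ATPase, which pumps protons into the lysosome, had a median of 0.0392 and 2 of 14 subunits called below the library median, ranging from the accessory subunit Atp6ap1 (0.0123 ± 0.00204) to Atp6v1e1 (0.0511 ± 0.00769). The list of other lysosomal membrane proteins, which also holds Vps33a, Vps39 and Vps41, had a median of 0.0383 with 1 of 13 called below. Its range was 0.0182 to 0.0522, and the 3 well-covered genes ran from Laptm4a (0.0182 ± 0.00183) to Tmem106b (0.0435 ± 0.00353). The genes of mannose 6-phosphate sorting had a median of 0.0342 with 2 of 8 called below and a range of 0.00998 to 0.0455, and their receptors Igf2r and M6pr had 0.0288 ± 0.00284 and 0.0455 ± 0.00332. TFEB family members and the Ragulator and Rag proteins, which link the lysosome to mTORC1, had a median of 0.0388 with 0 of 9 called below and a range of 0.0256 to 0.0477, and the 4 well-covered ones ran from Lamtor1 (0.0376 ± 0.00519) to Rragc (0.0476 ± 0.00497). None of these lists had a gene called above the library median in this fit (limma, adjusted p below 0.05, rates being mean ± SD, n = 3 labeled libraries). With at least 1000 covered T, 2 of 7 V-ATPase, 1 of 2 sorting and 1 of 4 regulator genes were called above it, against 8.26% of all genes. At that coverage 2 of 7, 1 of 2 and 0 of 4 of them were called below it, against 20.0% of all genes. So were 3 of 3 further enzymes, 4 of 4 cathepsins and 1 of 3 other membrane proteins. By the share of reads, 2 of 14 V-ATPase and 2 of 9 regulator genes were called above it, against 7.72% of all genes. Called below it were 3 of 14 V-ATPase and 0 of 9 regulator genes, against 14.7% of all genes. Without labeled replicates 1, 2 and 3, where 2.07%, 3.38% and 2.07% of all genes were called below, 2 of 16, 6 of 16 and 3 of 19 further enzymes and 4 of 10, 7 of 10 and 5 of 11 cathepsins were. In the same fits the V-ATPase had 1 of 14, 1 of 14 and 1 of 15 genes called below. The list of other membrane proteins had 0 of 14, 1 of 13 and 0 of 17, and sorting 1 of 8, 1 of 8 and 0 of 9.

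**Figure D4:**
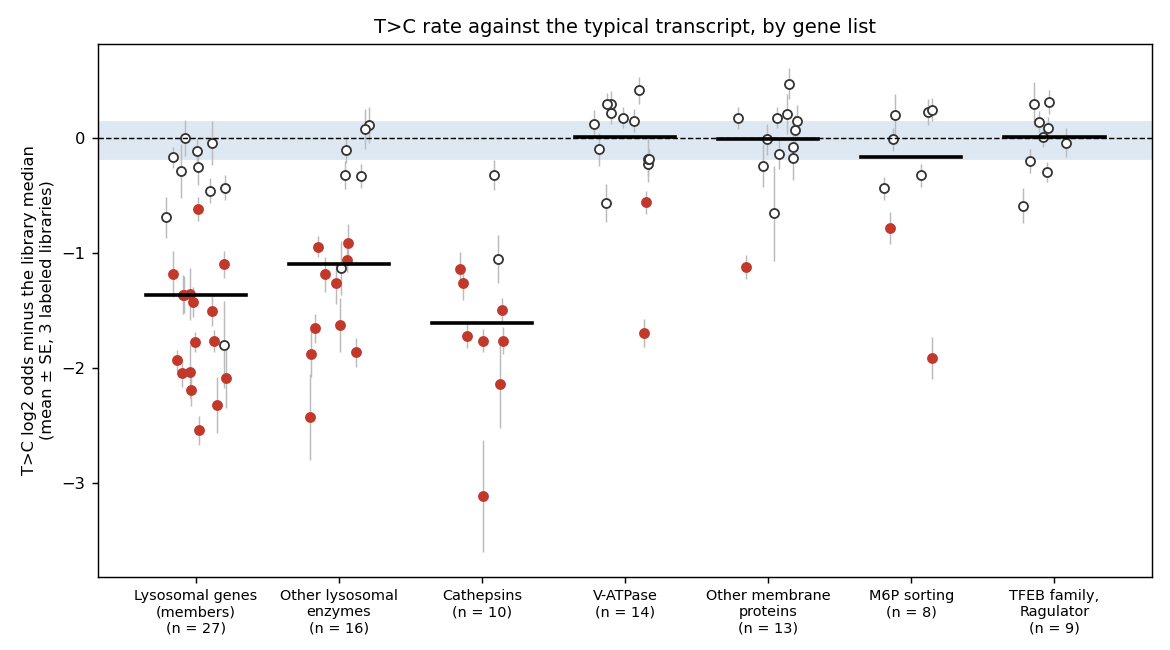
T>C log2 odds relative to the library median (vertical axis; point, mean of 3 labeled libraries; grey bar, SE) for the 27 lysosomal genes tested and 6 other lists of lysosomal function, with the median of each list as a black line. Filled points are below the median gene at an adjusted p below 0.05, the blue band holds the central quartiles of all genes, and the list medians run from −1.61 for the cathepsins to 0.01 for the V-ATPase.

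Rate and level varied largely apart among the lysosomal genes. Across the 27 genes, Spearman's rho of the T>C rate with the level was −0.20, and −0.05 across all 6723 genes. Abundant genes had low and middle rates, such as Npc2 and Scarb2, and genes of low level had low rates, such as Naglu and Man2b1, or typical ones, such as Idua. The rate was higher in longer intervals (rho 0.52 across the 27 genes and 0.11 across all genes) and in intervals with a larger share of T (rho 0.34 and 0.27). The 11 lysosomal genes with intervals of up to 1000 bases had a median rate of 0.0117 and none above 0.0245, while the median of the 2642 genes with such intervals was 0.0378. The 16 with longer intervals had a median of 0.0267, and the 4081 genes with such intervals 0.0390. The order of the lysosomal genes was similar in the labeled libraries, with rho of 0.77, 0.82 and 0.84 between pairs. These values are across genes that share libraries, and genes are not independent replicates.

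**Figure D5:**
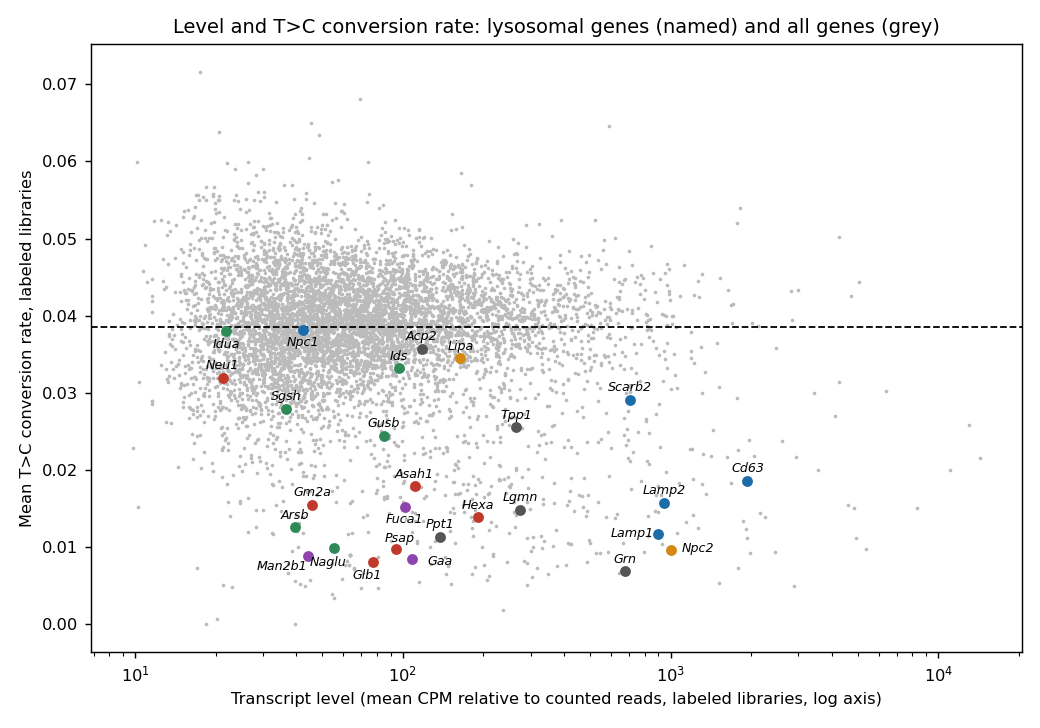
Mean T>C conversion rate (vertical axis) against mean level in the labeled libraries (horizontal axis, CPM relative to the counted reads, log scale) for the 27 lysosomal genes with enough covered T (named, coloured by role) and all 6723 genes (grey). The dashed line marks the median rate of all genes, 0.0386, and the lysosomal genes spread over levels up to 1938 (Cd63) with rates from 0.00687 (Grn) to 0.0382 (Npc1).

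Elements known from unstable transcripts were looked for in the 3′ ends. In the last 300 bases of the interval, which 26 of the 29 genes have, the AU-rich letters TATTTAT were found in 1 gene (3.85%) and in 10.4% of 14307 genes, and the Pumilio-type letters TGTANATA in 1 gene (3.85%) and in 10.2%, read on the strand of the gene. Asah1 held 1 TATTTAT and Acp2 held 2 TGTANATA. A site of each is shown with at least 10 bases on either side and the element in capitals, as these were the 2 genes with a match.
Asah1, chr8:41793830-41793857, minus strand, GRCm39: gaaatcaatgTATTTATgaaaactgcaa
Acp2, chr2:91044248-91044275, plus strand, GRCm39: tgccctacatTGTACATActtgctttcc

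Asah1 had a low rate (0.0179 ± 0.00560) and Acp2 a typical one (0.0357 ± 0.00480; SD, n = 3 labeled libraries). The absence of a match says only that these letters were not in the window.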

How the data were processed

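The 5 libraries were grouped by the submitters' labels (3 labeled, 2 unlabeled). Per the file headers and the study's methods, the authors moved the UMI into the read names, used SLAM-DUNK 0.4.3 to map the 3′ end reads on mm39, collapsed reads with the same UMI and deposited a read count, a count of covered T and a count of conversions per 3′ UTR interval. The deposited conversion rate is a fraction, conversions per covered T. The deposited CPM is the read count divided by 1 number of reads per library, 7.58 to 28.9 times the reads counted on 1 interval per gene. Strand use and the origin of the intervals are not given in the sources used here.

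Repeated rows were dropped (97442 rows, 40428 intervals). The T content of 20329 of 20329 intervals checked matched GRCm39, and coordinates count from 1. All statistics were fitted on the whole table. Conversions out of covered T were tested between the groups by a likelihood-ratio test under a beta-binomial model (two-sided, chi-square, 1 degree of freedom, p below 0.05 unadjusted). Rates were compared with the median gene of the library by limma on log2 odds (pseudocount 0.5, at least 200 covered T in each labeled library), and read counts by edgeR's quasi-likelihood test (TMM, filterByExpr), both with Benjamini-Hochberg adjustment at 0.05. DESeq2, other size factors and filters, the replicate number as a block, other coverage limits and each library left out were tried as alternatives. The tests were tried on simulated data, and the outcome is not given here. The fits ran in R 4.3.3 (limma 3.58.1, edgeR 4.0.16, DESeq2 1.42.0) and in Python 3.11.15 (numba 0.67.0, scipy 1.17.1). All 29 genes are named, and of the other lists the genes with the highest and the lowest rate among those with at least 1000 covered T in every labeled library. The result for 1 of these is not reported here. The genes and the lists were chosen with earlier results of these data known.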

Additional observations from a re-analysis of the deposited data

How the results depend on the processing

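Of the lysosomal genes, 12 had at least 1000 covered T in every labeled library. With that minimum, 12 of 12 genes with the coverage in every library had a raised T>C rate in labeled libraries and 10 of 12 were called below the library median, against 20.0% of 2119 genes. With each of the 5 libraries left out in turn, the number of genes with a raised rate ranged from 25 to 27 and the number with changed reads was 0. With each of the 3 labeled libraries left out, the number called below the median ranged from 7 to 14, the median rate from 0.0147 to 0.0166 and the median level from 6.75 to 10.3 CPM. Each of these fits of the rate had fewer residual degrees of freedom than the fit of all labeled libraries. What changed the number of calls was not tested. The median level was 101.6 CPM relative to the counted reads in place of 7.78 CPM, a change of scale, and 12.7 CPM with intervals summed per gene. The share of reads with a conversion gave 20 genes called below the median, against 14.7% of all genes, and intervals summed per gene gave 14, against 4.14% of all genes. The difference from the median gene changed sign for Npc1 (0.036 for the share of reads, and −0.27 to 0.18 with a labeled library left out), Neu1 (−0.52 to 0.043 with a labeled library left out), Ids (0.19 for the share of reads) and Idua (0.028 with a pseudocount of 1, and −0.11 to 0.19 with a labeled library left out). The cause was not tested. Of all values of this difference under other settings, 140 kept sign and side of the threshold, 24 lost the call, 4 gained one (Scarb2 in 2 settings, Gusb and Arsb by the share of reads) and 6 changed sign. The groups share replicate numbers 1 and 2, which the labels do not tie to a shared preparation. Deviations of same-numbered libraries from their group means had a correlation of 0.784 for number 1 and 0.638 for number 2 over 9806 genes, and labeled replicate 3 had one of 0.482 with unlabeled replicate 2, with which it shares no number. With 2 unlabeled libraries their deviations are mirror images. With the replicate number as a block, which left 1 residual degree of freedom and called 11.7% of all genes, edgeR called 3 lysosomal genes, all lower in labeled libraries: Sgsh (adjusted p = 0.00626), Lipa (adjusted p = 0.0400) and Neu1 (adjusted p = 0.0493).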
